A study of Homo sapiens and synthetic construct with 52 samples.

Results

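The guides described here target RNA polymerases I and III and the factors that place them on their genes. They were chosen by name from the CRISPRi libraries: every guide against a gene called POLR1 or POLR3 plus a letter, and every guide against BRF1, BDP1, GTF3A, GTF3C1 to GTF3C5, RRN3, UBTF and TAF1A to TAF1D. The rule gave 159 guides against 29 genes, out of 103074 guides and 18788 genes in the library, which also holds 1895 non-targeting guides. The cells were K562, an established chronic myeloid leukaemia line. All of them carried dCas9-KRAB, a nuclease-dead Cas9 fused to a transcriptional repressor, delivered by lentivirus and sorted on a blue fluorescent marker as a pool rather than as 1 clone. In such cells a guide lowers transcription from the start site it is aimed at, and a guide whose cells grow or survive less well becomes rarer among the guides that are sequenced.

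The members were followed in 4 screens with no added genetic change. LGR is the library recloned by the study and legacy is the earlier clone of the same guide list. The LGR 1000-fold survival screen, with about 1000 cells for each guide, had 1 starting sample (T0) and 3 samples after 7 days of culture (Tf). The LGR 100-fold survival screen had 2 T0 and 4 Tf samples. The dasatinib screens, at 100-fold coverage, were run in both libraries. Each had 2 T0 samples (A and B), 2 samples given 0.01% DMSO and 2 given 0.75 nM dasatinib (DASA), a tyrosine kinase inhibitor, with 72 h of treatment and 6 days of recovery. Each library of the dasatinib screens was transduced once and then split, so its replicates are technical. The paper also calls the replicates it compared in the 100-fold survival screen technical. Nothing says that any replicates of the survival screens came from separate transductions. The p-values of the tests of single guides therefore measure the spread between these samples only.

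RNA polymerase I transcribes the long precursor of the ribosomal RNAs in the nucleolus. RNA polymerase III makes the short RNAs of the translation machinery, among them the transfer RNAs and the 5S ribosomal RNA, and several other small RNAs. Each enzyme has its own large subunits, shares others with the second enzyme, and reaches its promoters through its own factors: UBTF, RRN3 and the SL1 complex for polymerase I, and TFIIIA, TFIIIB and TFIIIC for polymerase III.

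The guide names give a strand, a position in hg19 and a start site (P1, P2 or, where both were covered by 1 set of guides, P1P2), but no chromosome. Of the 29 genes, 26 had 1 start site and 3 had 2 (POLR1C, POLR1D and TAF1D), which makes 32 sets of 4 or 5 guides. The guides of a set spanned 38 to 2582 bp, with a median of 376 bp, and 89 lay on the plus strand against 70 on the minus strand. The P1 and P2 guides lay 1055 bp apart in POLR1D, 3218 bp apart in TAF1D and 7296 bp apart in POLR1C. The widest set was that of UBTF, with guides at 42295646 and 42295898 and others at 42297779, 42298219 and 42298228.

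Promoters of RefSeq genes show the kind of sequence that these guides were aimed at. The guides' own sequences were not used here. Of the 29 genes, 25 matched the RefSeq promoter table, which is in GRCh38.p14, with 37 promoters. POLR1D is shown because its start sites behaved differently, GTF3C1 because most of its guides were lost, and UBTF because its guides were not. Each line gives the 150 bases before the start in the direction of transcription, and capitals mark GGGCGG or its reverse complement CCGCCC.
POLR1D, upstream start, chr13:27620593-27620742, plus strand: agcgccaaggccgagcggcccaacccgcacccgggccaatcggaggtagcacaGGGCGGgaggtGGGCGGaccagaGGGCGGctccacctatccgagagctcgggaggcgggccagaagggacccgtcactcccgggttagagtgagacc
POLR1D, downstream start, chr13:27621742-27621891, plus strand: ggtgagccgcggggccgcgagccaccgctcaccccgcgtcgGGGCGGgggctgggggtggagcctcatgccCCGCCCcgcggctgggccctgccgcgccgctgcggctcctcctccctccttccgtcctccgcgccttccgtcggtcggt
GTF3C1, chr16:27549914-27550063, minus strand: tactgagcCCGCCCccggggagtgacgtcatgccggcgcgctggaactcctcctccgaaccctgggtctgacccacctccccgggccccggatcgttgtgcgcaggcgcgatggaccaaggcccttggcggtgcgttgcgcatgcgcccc
UBTF, upstream start, chr17:44220883-44221032, minus strand: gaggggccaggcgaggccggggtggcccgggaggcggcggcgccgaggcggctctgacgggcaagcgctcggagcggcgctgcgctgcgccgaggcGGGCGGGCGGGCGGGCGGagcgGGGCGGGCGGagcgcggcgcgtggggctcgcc
UBTF, downstream start, chr17:44219676-44219825, minus strand: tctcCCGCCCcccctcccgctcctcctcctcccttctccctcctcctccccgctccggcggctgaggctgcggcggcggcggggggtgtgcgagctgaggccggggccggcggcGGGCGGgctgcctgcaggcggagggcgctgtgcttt

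The POLR1D starts lie 1149 bp apart and the UBTF starts 1207 bp apart in that build. Which of the starts each guide set was aimed at was not determined, since the guides are placed in hg19. The upstream POLR1D promoter held 3 matches of the motif and the downstream one 2, while the UBTF promoters held 6 and 2. Within 150 bases of the start, on either strand, GGGCGG was present in 18 of the 37 member promoters and in 36.8% of all 35116 promoters. The motif CCGGAAG or its reverse complement CTTCCGG was in 8 of the 37 and in 6.85% of all. These counts describe letters in the window.

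The 22 screen libraries held 15739255 to 111002750 counts. The 159 guides took 0.141% of the counts in the 1000-fold T0 sample and 0.0911 to 0.0929% in its Tf samples, and 0.136 to 0.141% and 0.0875 to 0.0936% at 100-fold. In the dasatinib screen of the LGR library, their share was 0.126 to 0.131% at T0, 0.0783 to 0.0802% in DMSO and 0.0926 to 0.0928% in DASA, and in the legacy library it was 0.143 to 0.145%, 0.1004 to 0.1007% and 0.120 to 0.127%. The share was lower at the end of growth than at T0 in every screen, and the DASA samples lay between T0 and DMSO in both libraries. The chi-square per guide between 2 replicates, which is near 1 when they differ by counting noise alone, was 5.65 to 6.36 for the 1000-fold Tf samples, and 10.3 for the T0 and 22.5 to 27.6 for the Tf samples at 100-fold. In the dasatinib screen it was 3.69 and 3.91 for T0 in the LGR and legacy libraries, 6.98 and 6.84 for DMSO, and 30.5 and 24.0 for DASA.

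The survival screens asked which guides were lost over 7 days of growth. At 1000-fold coverage 78 of the 159 guides fell and 0 rose, by edgeR's quasi-likelihood test at an adjusted p of 0.05. Among all guides 9.07% fell and 1.08% rose. The median log2 fold change, Tf over T0, was -0.43 for the members and 0.01 for all guides. At 100-fold coverage 63 of the 159 fell and 0 rose, where 5.68% of all guides fell and 0.0437% rose, and the member median was -0.55 against 0.03. With a single T0 sample fewer guides were called at 100-fold, among the members and all guides alike. The member median was then -0.58 without T0 replicate 1 and -0.55 without T0 replicate 2. A gene was scored as the mean of its 3 strongest guides relative to the non-targeting guides (its phenotype, log2), and called by an exact two-sided Mann-Whitney test of its guides against the non-targeting guides with Benjamini-Hochberg adjustment. By that measure 16 of the 29 genes fell at 1000-fold, where 7.76% of all genes fell and 0.128% rose. At 100-fold 13 of 29 fell, where 7.15% of all genes fell and 0.0642% rose, and no member rose in either screen. The median phenotype over the 32 sets was -1.45 and -1.78, against -0.05 and -0.08 over every set in the library. This gene test treats guides as its units and does not measure the spread between samples.

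The tests of single guides divided the members by role. TFIIIB, with BRF1 and BDP1, lost the greatest share, 10 of 10 guides at 1000-fold, with a median log2 fold change of -2.07. The 3 polymerase I subunits lost 9 of 15 (median -1.10), the TFIIIC genes 15 of 25 (-0.79), the polymerase I factors 18 of 35 (-0.46) and the shared subunits 8 of 19 (-0.23). The polymerase III subunits lost 16 of 50 (-0.21), and TFIIIA 2 of 5 (-0.30). At 100-fold the counts were 9 of 10, 6 of 15, 13 of 25, 16 of 35, 8 of 19, 10 of 50 and 1 of 5, in the same order. By strand, 44 of 89 plus-strand and 34 of 70 minus-strand guides fell at 1000-fold. The shared subunits and polymerase I factors include the P2 sets of POLR1C, POLR1D and TAF1D, where no guide fell at either coverage. At 1000-fold the P1 sets of these genes lost 3, 5 and 4 of 5 guides, with medians of -2.84, -3.82 and -2.63. Differences between roles were not tested.

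Among the subunits specific to polymerase I, POLR1A is the largest subunit and forms the catalytic centre with POLR1B. The POLR1A guide at 86332775 went from 9.68 reads per 1000000 of the library (CPM) at T0 to 2.44, 2.97 and 2.47 in the 1000-fold Tf samples. At 100-fold it went from 8.20 and 10.4 to 1.17, 3.04, 2.58 and 1.46. Every Tf sample lay below every T0 sample in both screens. The gene's phenotype was -1.52 ± 0.07 (SD, n = 3) at 1000-fold, with 3 of 5 guides lower, and the exact Mann-Whitney test gave an adjusted p of 0.044. That call was lost without Tf replicate 1 (adjusted p = 0.0545) and without Tf replicate 2 (0.114). At 100-fold the phenotype was -1.72 ± 0.42 (SD, n = 4), with an adjusted p of 0.153 by the same exact test.

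POLR1B showed the deepest loss by single guides of the polymerase I subunits. Its guide at 113300081 went from 11.3 CPM at T0 to 0.293, 0.179 and 0.306 at 1000-fold, a log2 fold change of -5.49 (SE 0.29, edgeR adjusted p = 1.46e-20). At 100-fold it went from 8.43 and 9.22 CPM to 0, 0.219, 1.19 and 1.08. The groups did not overlap in either screen, and 1 of the Tf samples held no count of this guide. The phenotype was -4.25 ± 0.46 (SD, n = 3), yet the gene was not called (exact Mann-Whitney, adjusted p = 0.148), with 3 of 5 guides lower and the highest of the 5 at 0.06. POLR1E, known as PAF53, which pairs with CD3EAP in a heterodimer specific to polymerase I, had a smaller phenotype of -1.33 ± 0.24 (SD, n = 3) but was called (exact test, adjusted p = 9.42e-07). Its 5 guides all had negative values, from -1.73 to -0.28, and 3 of them fell.

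POLR1C and POLR1D form the heterodimer on which the assembly of both polymerases rests, and they are shared by polymerases I and III. In both genes the loss was in the P1 guides. The POLR1D P1 guide at 28196048 went from 8.98 CPM to 0.606, 0.349 and 0.306 at 1000-fold, and from 10.3 and 8.10 to 0.416, 0.604, 0.442 and 0.823 at 100-fold. The P2 guide at 28194901, the lowest of its set, went from 8.93 to 7.61, 8.53 and 8.49, and from 7.63 and 7.18 to 6.89, 3.55, 6.42 and 7.34. The P1 guide lost most of its reads in all 7 Tf samples, whereas the 1000-fold Tf values of the P2 guide stayed near T0. All 5 P1 guides fell at both coverages, with phenotypes of -4.25 ± 0.30 (SD, n = 3) and -4.78 ± 0.64 (SD, n = 4), and 0 of 5 P2 guides fell, with phenotypes of 0.00 and -0.01.

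The POLR1C P1 guide at 43484868 went from 9.21 CPM to 0.700, 0.519 and 0.324 at 1000-fold. The P1 set had 3 of 5 guides lower in both screens, and its phenotype was -3.76 ± 0.27 (SD, n = 3; exact test, adjusted p = 0.000412) at 1000-fold and -3.72 ± 0.46 (SD, n = 4; exact test, adjusted p = 0.355) at 100-fold. The sizes were close, but only the first was called. The 4 POLR1C P2 guides had phenotypes of -0.05 and -0.22, and 0 of 4 fell in either screen.

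The remaining polymerase I genes are factors of initiation. TAF1A, TAF1B, TAF1C and TAF1D are the subunits that, with the TATA-binding protein, make up SL1, the complex that selects the ribosomal DNA promoter. All of them fell at 1000-fold. The TAF1A guide at 222763193 went from 10.8 CPM to 0.748, 0.594 and 0.468, and at 100-fold from 8.10 and 12.2 to 0.198, 1.13, 1.23 and 1.92. The TAF1D P1 guide at 93474665 went from 9.38 to 1.05, 1.10 and 0.775, and from 9.12 and 6.55 to 0.852, 0.256, 1.29 and 0.841. For both guides the Tf samples lay well below T0 at both coverages. The phenotypes at 1000-fold were -3.53 ± 0.11 for TAF1A, -1.62 ± 0.08 for TAF1B, -2.39 ± 0.10 for TAF1C and -3.01 ± 0.16 for TAF1D P1 (SD, n = 3), and TAF1D P2 was at -0.07, with 0 of 5 guides lower. At 100-fold TAF1A (-3.19 ± 0.44), TAF1B (-2.02 ± 0.30) and TAF1D P1 (-3.24 ± 0.40) fell, and TAF1C was at -2.76 ± 0.36 (SD, n = 4) with an adjusted p of 0.108 by the exact test. The TAF1A call at 1000-fold was lost without Tf replicate 1 (adjusted p = 0.0524), and the TAF1B call at 100-fold without T0 replicate 2 (0.0538).

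RRN3, also called TIF-IA, joins polymerase I to SL1 and carries growth signals to it. Its guides were of 2 kinds. The guide at 15187953 went from 7.24 CPM to 0.0757, 0.490 and 0.207 at 1000-fold, and from 4.74 and 5.74 to 0, 0, 0.115 and 0 at 100-fold. The guide at 15187949, 4 bp away, went from 4.04 to 0.189, 0.274 and 0.252, and from 3.69 and 4.09 to 0.238, 0.183, 0 and 0. Both were close to absent in every Tf sample, while the gene's highest guide was at 0.29 and its median guide at -0.46. The phenotype of -3.32 ± 0.56 (SD, n = 3) was therefore not called at 1000-fold (exact test, adjusted p = 0.704), and the -4.80 ± 0.63 (SD, n = 4) at 100-fold was called at an adjusted p of 0.0401 that rose to 0.203 without Tf replicate 4 and passed 0.05 without 4 other single samples.

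UBTF, the upstream binding factor that keeps ribosomal DNA open, did not move with the others. Its lowest guide, at 42295898, had 7.69 CPM at T0 and 5.73, 6.99 and 6.55 in the 1000-fold Tf samples, and 6.33 and 7.99 against 7.11, 5.76, 8.46 and 7.24 at 100-fold, where the groups overlapped. None of its 5 guides fell in either screen, and the phenotype was -0.11 ± 0.11 (SD, n = 3) and 0.16 ± 0.14 (SD, n = 4). The transcript level of the targeted genes was not measured, so a guide without an effect and a gene without an effect cannot be told apart.

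Of the 10 polymerase III subunits, 3 genes fell at 1000-fold and 2 at 100-fold. POLR3A, the largest subunit, lost 5 of 5 guides at 1000-fold. Its guide at 79789274 went from 8.90 CPM to 0.908, 0.887 and 1.18, and from 9.71 and 8.30 to 0.654, 1.44, 2.0004 and 1.74 at 100-fold. The phenotype was -2.61 ± 0.08 (SD, n = 3) and -3.34 ± 0.12 (SD, n = 4), both called. POLR3F, part of the initiation trimer with POLR3C and POLR3G or POLR3GL, had the largest phenotype of these subunits, -3.31 ± 0.27 (SD, n = 3) and -4.48 ± 1.28 (SD, n = 4). Its guide at 18448066 went from 5.76 CPM to 0.104, 0.198 and 0.171, and from 6.38 and 6.00 to 0.0792, 0.219, 0.462 and 0. The guides of POLR3F were uneven. At 1000-fold 3 of 5 fell, with the median guide at -0.51 and the highest at -0.08, and at 100-fold 2 of 5 fell.

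POLR3D, which pairs with POLR3E in a dimer that works in initiation and termination, fell at 1000-fold (-1.14 ± 0.18, SD, n = 3; exact test, adjusted p = 0.0333) and was not called without Tf replicate 1 (0.182) or at 100-fold (-1.50 ± 0.38, SD, n = 4; exact test, adjusted p = 0.415). POLR3B, the second-largest subunit, had 3 of 5 guides lower and a phenotype of -1.38 ± 0.04 (SD, n = 3) that was not called (exact test, adjusted p = 0.116). In POLR3E and POLR3K 1 guide of 5 fell. The POLR3E guide at 22308794 went from 7.88 CPM to 2.11, 1.91 and 2.65, and the POLR3K guide at 103920 from 4.54 to 0.889, 0.839 and 0.973. Both fell well below T0, while the highest guide of POLR3E was at 0.32 and that of POLR3K at 0.11. POLR3C had 1 of 5 guides lower (-0.67), and 0 of 5 fell in POLR3G and POLR3GL. POLR3G and POLR3GL are paralogous forms of 1 subunit, and their phenotypes were -0.10 ± 0.07 and -0.14 ± 0.04 (SD, n = 3).

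Among the polymerase III factors, BRF1 and BDP1 are the TFIIIB subunits that recruit the enzyme. All 5 guides of each fell at 1000-fold. The BDP1 guide at 70751690 went from 8.75 CPM to 0.227, 0.104 and 0.459, and at 100-fold from 10.1 and 9.11 to 0.178, 0.640, 0 and 0.402. The BRF1 guide at 105767309 went from 10.7 to 0.795, 1.08 and 1.31, and from 10.3 and 8.93 to 0, 0.530, 1.04 and 0.220. Every Tf sample was far below T0 for both. BRF1 had a phenotype of -2.72 ± 0.08 (SD, n = 3) and -3.61 ± 0.77 (SD, n = 4), and BDP1 of -2.91 ± 0.39 and -3.44 ± 0.70. The weakest BRF1 guide at 1000-fold still had a log2 fold change of -2.07, whereas the weakest BDP1 guide was at -0.43 (SE 0.11, edgeR adjusted p = 0.00332).

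TFIIIC binds the internal promoter elements of transfer RNA genes. GTF3C1, its largest subunit, had a phenotype of -3.51 ± 0.12 (SD, n = 3) and 4 of 5 guides lower, GTF3C3 of -2.90 ± 0.07 and 4 of 5, and GTF3C2 of -1.84 ± 0.09 and 4 of 5. The GTF3C1 guide at 27561207 went from 9.21 CPM to 0.596, 0.547 and 0.613, and from 9.61 and 7.95 to 0.158, 0.695, 1.42 and 0.384 at 100-fold. In each of these genes 1 guide stayed near T0, at -0.15, -0.07 and -0.13. GTF3C5 lost 2 of 5 guides and was not called (-1.13 ± 0.02, SD, n = 3; exact test, adjusted p = 0.15), and GTF3C4 lost 1 of 5, with a phenotype of -0.25 ± 0.03. GTF3A, the TFIIIA that is specific to the 5S gene, lost 2 of 5 guides, the lowest at -0.80, and had a phenotype of -0.59 ± 0.04 (SD, n = 3; exact test, adjusted p = 0.0969). At 100-fold GTF3C1 (-3.87 ± 0.34) and GTF3C2 (-2.16 ± 0.41, SD, n = 4) were called at adjusted p of 0.0499 and 0.049 by the exact test. Leaving out 1 sample ended the GTF3C1 call in 2 cases and the GTF3C2 call in 4.

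The 2 coverages were compared guide by guide with an interaction term. By edgeR none of the 159 guides differed in its Tf/T0 change between 1000-fold and 100-fold, and of all guides 0% were called lower and 0% higher. At an unadjusted p under 0.05 1 of the 159 members differed. The share of all guides at that level was not computed, so this count cannot be set against the library. The differences among members ran from -1.64 to 2.61 on the log2 scale. With a lone T0 sample at 1000-fold and noisier replicates at 100-fold, the test could miss differences. The lack of calls does not show that the changes were equal.

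Growth under DMSO in the dasatinib screens gave a further measure in both libraries. In the LGR library 76 of the 159 guides fell and 0 rose between T0 and DMSO, against 7.42% and 0.535% of all guides. In the legacy library 63 fell and 1 rose, against 6.88% and 0.619%. The member medians were -0.88 and -0.83, and those of all guides 0.02 and 0.01. Of the genes, 14 of 29 fell in the LGR library, where 6.15% of all genes fell and 0.0919% rose, and 13 of 28 in the legacy library, where 5.63% fell and 0.126% rose. No member gene rose. Fewer guides were called with a single T0 sample, among the members and all guides alike. The member median in the LGR library was then -0.83 without T0 A and -0.97 without T0 B. With the DASA samples in the same fit 21 and 34 members were called in the LGR and legacy libraries. Among all guides that fit called 1678 lower of 102907 and 2458 lower of 101745.

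By role, TFIIIB lost 10 of 10 guides in the LGR library and 8 of 10 in the legacy library, TFIIIC 16 and 12 of 25, and polymerase I factors 17 and 13 of 35. Polymerase I subunits lost 9 and 7 of 15, shared subunits 7 and 6 of 19, polymerase III subunits 14 and 14 of 50, and TFIIIA 3 and 3 of 5. The counts of shared subunits and polymerase I factors again pool P1 and P2 sets. GTF3A, not called in the survival screens, fell in both libraries here, with phenotypes of -1.22 ± 0.38 and -2.49 ± 0.16 (SD, n = 2). Its guide at 27998904 went from 10.2 and 10.3 CPM to 2.41 and 6.71 in the LGR library and from 9.01 and 7.40 to 0.802 and 0.930 in the legacy library. The legacy DMSO samples were lower than the LGR ones, but the difference between libraries in these guides was not called.

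GTF3C3 fell in both libraries, with phenotypes of -5.78 ± 0.29 and -4.56 ± 0.35 (SD, n = 2). TAF1A was at -4.29 ± 0.19 and -5.18 ± 0.52 and POLR1D P1 at -3.52 ± 0.46 and -3.97 ± 0.01, all called in both. The TAF1A call in the legacy library was lost without DMSO replicate 2 (-5.56; exact test, adjusted p = 0.0619). POLR1D P2 had no guide called, but its set passed the gene test in the LGR library (-0.61 ± 0.61, SD, n = 2; exact test, adjusted p = 0.0129). That call was lost without DMSO replicate 1 (-0.17, 0.845) and without T0 A (-0.50, 0.31). POLR1A was called in the legacy library (-1.46 ± 0.53) and not in the LGR library (-2.40 ± 0.14, SD, n = 2; exact test, adjusted p = 0.711), where 3 of its 5 guides fell. UBTF stayed at 0.04 ± 0.17 and 0.05 ± 0.16, with 0 of 5 guides lower in either library.

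Some guides left no reads in DMSO. TAF1A at 222763187 had 0 counts in both DMSO samples of each library, which is at least 28.5-fold lower than T0 in the LGR library and at least 32.0-fold in the legacy library, taking 3 counts per library as the floor. BDP1 at 70751690 was at least 23.4-fold lower in the LGR library and GTF3C1 at 27561198 at least 27.3-fold in the legacy library. These bounds cover counting error only.

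Across the 4 growth comparisons, 48 of the 159 guides fell in all 4, 22 in 3, 9 in 2, 4 in 1 and 76 in none. Of the 101581 guides of the library tested in all 4, 3.81% fell in all 4, 2.46% in 3, 1.81% in 2, 2.57% in 1 and 89.3% in none. Of the 28 member genes tested in all 4, 9 fell in all 4, where 3.25% of 18227 genes did: POLR1E, POLR1D, TAF1A, TAF1D, POLR3A, POLR3F, BRF1, BDP1 and GTF3C3. These 9 include members of both polymerases, SL1, TFIIIB and TFIIIC. Of these calls, that of POLR3F in the LGR library (-0.77 ± 0.26, SD, n = 2; exact test, adjusted p = 0.00625) was lost without DMSO replicate 1 (-0.59, adjusted p = 0.145), and those of TAF1A at 1000-fold and in the legacy library each without 1 sample. The genes called in none included UBTF, POLR3B, POLR3C, POLR3E, POLR3G, POLR3GL and GTF3C4.

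The test of the difference between libraries called 4 member guides, all with a larger loss in the LGR library. Of all guides 0.0796% were lower in the LGR library by that test and 0.0641% higher. The BRF1 guide at 105767298 went from 12.6 and 8.29 CPM to 1.75 and 1.22 in the LGR library and from 7.50 and 11.04 to 6.82 and 8.48 in the legacy library, a difference of -2.58 (SE 0.47, edgeR adjusted p = 0.0222). Its T0 and DMSO values in the legacy library overlapped. Its neighbour at 105767326 went from 9.78 and 13.7 to 0.301 and 0.521 in the LGR library and from 7.93 and 12.9 to 3.15 and 2.85 in the legacy library (-3.05, SE 0.57, edgeR adjusted p = 0.0306).

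The TAF1D P1 guide at 93474630 went from 6.15 and 7.46 CPM to 0.120 and 0.289 in the LGR library and from 6.04 and 7.12 to 2.81 and 3.66 in the legacy library (-4.01, SE 0.69, edgeR adjusted p = 0.0159). The GTF3C2 guide at 27579592 went from 10.1 and 8.18 to 0 in both LGR DMSO samples, at least 51.7-fold lower, and from 10.8 and 13.2 to 1.43 and 0.813 in the legacy library (edgeR adjusted p of the difference 0.0312). All 4 guides fell in the LGR library, and the latter 3 also lay below T0 in every legacy DMSO sample. The single guide that rose in the legacy library was the POLR1C P2 guide at 43477509, with 15.1 and 14.4 CPM at T0 and 22.2 and 22.9 in DMSO. In the LGR library it had 6.40 and 5.29 at T0 and 8.97 and 6.37 in DMSO.

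Guides can also be lost before T0, which was read against the plasmid library as a description with no test, since each plasmid was sequenced as 1 library. In the T0 samples of the dasatinib screens 15 of the 159 guides, of 9 genes, lay more than 1 log2 unit below the LGR plasmid, relative to non-targeting guides. Among all targeting guides the share was 2.86%, and among non-targeting guides 0.739%. For the legacy library it was 17 of 159, against 3.28% and 1.18%. In the survival screens 0 of 159 lay that low at 1000-fold and 2 at 100-fold, against 0.388% and 0.935% of targeting guides. The paper describes a longer puromycin selection in the dasatinib screens than in the survival screens. Their T0 samples therefore need not lie at the same time after infection. By its title the LGR plasmid was read on a HiSeq, whereas the paper sequenced the screens on a NextSeq. The member medians were -0.02, -0.05, -0.18 and -0.16 for 1000-fold, 100-fold, LGR and legacy T0.

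The early loss was deepest for RRN3, whose guides at 15187949 and 15187953 were at -2.93 and -2.51 in LGR T0 and at -2.52 and -2.70 in legacy T0. In the 1000-fold T0 they were at -0.60 and -0.11. POLR1B at 113300085 was at -1.998 and -2.69, and POLR3F at 18448104 at -2.05 and -1.88. The POLR1D P1 set had a median of -1.13 and -1.12, and its P2 set of -0.20 and 0.07. Such guides had few counts left at T0 for the DMSO comparison. In the gene score, which left out guides under 50 counts in both arms, RRN3 was left with 3 guides and a phenotype of -0.46 ± 0.04 (SD, n = 2) in the LGR library and was not scored in the legacy library. POLR3F likewise had 3 guides and a phenotype of -0.77 ± 0.26 in the LGR library, and POLR1B 4 and 3 guides in the libraries.

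Dasatinib against DMSO asked which guides changed in frequency under the drug. It shares its DMSO samples with the growth comparison above, so a low DMSO value makes the one fall and the other rise, and the values are only set side by side. Of the 159 members, 148 could be tested in each library, and the other 11 had fewer than 10 counts in every sample. In the LGR library 0 of 148 guides were called lower and 0 higher, against 0.00393% and 0.0954% of all guides. At an unadjusted p under 0.05 edgeR counted 3 of the 148 lower and 21 higher, against 4.6% and 7.39% of all guides, and DESeq2 called 8 members after adjustment, all higher, against 0.349% of all guides lower and 1.71% higher. In the legacy library 0 fell and 2 rose, against 0.0349% and 0.572% of all guides, and DESeq2 called 1 member lower and 10 higher, against 0.368% and 2.04%. The member medians were 0.49 and 0.50 on the log2 scale, and those of all guides 0.03 and 0.02. Without TMM scaling the medians of all guides shifted to -0.12 and -0.11 and those of the members to 0.33 and 0.37.

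Both guides that rose in the legacy library target POLR3B. The guide at 106751564 had 9.93 and 10.6 CPM at T0, 2.23 and 1.51 in DMSO and 11.8 and 10.9 in DASA, a log2 fold change of 2.72 over DMSO (SE 0.44, edgeR adjusted p = 0.0278). The guide at 106751930 had 10.6 and 10.3 at T0, 1.83 and 2.96 in DMSO and 12.8 and 10.1 in DASA (2.38, SE 0.44, edgeR adjusted p = 0.0497). In both the DASA samples were at the level of T0 and apart from DMSO. In the LGR library the first had 6.35 and 8.68 at T0, 2.59 and 2.84 in DMSO and 10.5 and 6.10 in DASA (1.77, edgeR adjusted p = 0.235). The second had 8.97 and 10.3, 4.76 and 2.55, and 4.98 and 6.78, where the DASA values were above DMSO by less (0.84). Without either of the legacy DMSO replicates neither guide was called, and the second was also lost without TMM scaling.

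By the gene test 1 of 22 member genes rose in the LGR library and 0 fell, where 0.643% of all genes rose and 0.414% fell. It was POLR3A, with a phenotype of 2.81 ± 0.63 (SD, n = 2; exact Mann-Whitney, adjusted p = 0.000104). The score took a guide if its mean reached 50 counts in DMSO or DASA. A guide low in DMSO thus entered only when it was high in DASA. That held for the guide at 79788771, with 29 and 7 counts in DMSO and 54 and 92 in DASA. It also held for 79789286 (16 and 11, 75 and 76) and 79789274 (23 and 6, 45 and 161). The filter therefore favoured a rise of POLR3A. Its guide at 79789286 had 5.74 and 6.57 CPM at T0, 0.964 and 0.637 in DMSO and 4.67 and 4.68 in DASA. The guide at 79789274 had 5.54 and 5.51, 1.39 and 0.347, and 2.80 and 9.92, which shows how far the DASA replicates could differ. Without DASA replicate 2 the phenotype was 1.89 and the exact test gave an adjusted p of 0.175. POLR3A in the legacy library was at 1.55 ± 0.17 (SD, n = 2; exact test, adjusted p = 0.0868).

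Of 20 member genes in the legacy library, 2 rose, where 0.681% of all genes rose and 0.522% fell. They were GTF3A (1.23 ± 0.05, SD, n = 2; exact test, adjusted p = 0.0235) and POLR3D (1.55 ± 0.15, SD, n = 2; exact test, adjusted p = 0.0137). The POLR3D guide at 22102673 had 8.26 and 8.63 CPM at T0, 2.35 and 3.60 in DMSO and 9.15 and 8.69 in DASA, and the guide at 22102968 had 7.66 and 9.08, 10.1 and 8.89, and 22.1 and 26.0. The first returned to its T0 level, and the second rose above it. In the LGR library GTF3A was at 0.97 ± 0.03 and POLR3D at 1.57 ± 0.12 (SD, n = 2), with adjusted p of 0.701 and 0.81 by the exact test. The GTF3A call was lost without DASA replicate 2 (adjusted p = 0.47) or DMSO replicate 2 (0.259), and the POLR3D call without DASA replicate 1 (0.0591) or 2 (0.0789).

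POLR3B had the largest gene phenotype of the legacy comparison among the members, 2.73 ± 0.11 (SD, n = 2), with 5 scored guides, and was not called (exact test, adjusted p = 0.472). Its guides at 106751564 (39 and 26 counts in DMSO, 186 and 192 in DASA) and 106751729 (37 and 12, 143 and 154) reached the mean of 50 counts only in DASA. The same was true of 106751930 (32 and 51, 202 and 177), so the filter favoured this high value. By role, the polymerase I subunits had guide medians of 0.58 and 0.73 on the log2 scale in the LGR and legacy libraries, the subunits shared by both polymerases of 0.24 and 0.34, the polymerase III subunits of 0.43 and 0.64, TFIIIB of 1.76 and 0.82, TFIIIA of 0.54 and 1.46, TFIIIC of 0.46 and 0.15, and the polymerase I factors of 0.51 and 0.39. UBTF, with no guide called in growth, was at 0.32 ± 0.34 and 0.06 ± 0.10. No member guide differed between the libraries in its dasatinib response by edgeR's interaction test, against 0.00195% of all guides lower and 0.000977% higher. At an unadjusted p under 0.05 by that test 15 of 154 members differed. The share of all guides at that level was not computed, so this count cannot be read as a trait of the members.

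Other genes of the same machinery lie outside the rule. They are polymerase I subunits under older symbols, subunits shared with polymerase II, and further genes that the rule does not list. Of 19 such genes, 8 fell at 1000-fold: CD3EAP, TWISTNB and ZNRD1 of polymerase I, POLR2F, POLR2H and POLR2K of all 3 enzymes, GTF3C6 of TFIIIC and TBP, the TATA-binding protein. Their lowest phenotypes were -6.12 for POLR2H and -5.36 for TWISTNB, below the lowest member value of -4.25. At 100-fold 9 of 19 fell, in the LGR and legacy DMSO comparisons 5 and 4 of 17, and in dasatinib against DMSO 0 of 14 and 0 of 13, and none rose. SNAPC1 to SNAPC5 and BRF2, which serve the promoters that lie outside the transcribed gene, had phenotypes between -0.56 and 0.08 at 1000-fold and were not called. The polymerase II subunits outside the shared set fell in 6 of 6 scored genes at both coverages.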

How the data were processed

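Guides were counted in the plasmid, survival-screen and dasatinib-screen libraries of K562 cells carrying dCas9-KRAB. The deposited values are raw counts of reads for each guide. The authors obtained them with a version of ScreenProcessing that matched reads to the 5-guide list. The submitters' processing notes name bcl2fastq and hg19, with no version. Sample titles gave the groups. The LGR CRISPRi plasmid sequenced on the HiSeq was taken by title because its other labels name the CRISPRa library. No per-sample column was left unused.

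Gene scores and summaries were computed in Python 3.11.15, with pandas 2.3.3 for tables, numpy 2.4.6 and scipy 1.17.1. Fits were made in R 4.3.3, with limma 3.58.1, DESeq2 1.42.0 and, for the main tests, edgeR 4.0.16. Single guides were tested, two-sided, with edgeR's quasi-likelihood test and TMM scaling over every guide that reached 10 counts in any of the samples compared, with Benjamini-Hochberg adjustment and a threshold of 0.05. A lone sample in a group was assumed to vary like the other group. Differences between coverages or libraries are interaction terms. Gene scores used guides whose mean count reached 50 in one of the arms. They are log2 ratios of depth-scaled counts minus the median of the non-targeting guides, and 1 replaced any count of 0. The phenotype is the mean of the 3 guides of largest absolute value. Its ± is the SD over the end samples, each set against the T0 mean (or DMSO mean). The exact two-sided Mann-Whitney test was adjusted over all sets with 3 or more guides, and a gene was called if any of its sets was. CPM values are counts per 1000000 counts of the library. The steps were tested on simulated data.

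The members and lists were chosen with earlier results of these data known. The guide of lowest and of highest change in the 1000-fold screen, guides called under dasatinib and guides called in an interaction test were named by rule, and the other single guides and outside genes in the text were chosen after their values were seen. Alternatives were other scalings, filters, tools, fits and left-out samples. The pilot pools, CRISPRa libraries and transduction titration are not used here. Values of 1 member gene are not reported here; its guides were kept in the fits and in the counts over all members.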

Additional observations from a re-analysis of the deposited data

Results flagged for a closer look

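The phenotype of TAF1B in the 100-fold survival screen had 1 sample apart from the others: the 4 Tf samples gave -2.16, -1.59, -2.24 and -2.17, and the gap of the highest to its neighbour was 0.879 of the range, above Dixon's critical value for 4 samples. It was 1 of 32 such groups, and chance alone sets about 1 in 20 apart.

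The change from T0 to DMSO differed between the LGR and legacy libraries for 4 guides by edgeR's interaction test. The log2 differences, LGR minus legacy, were -2.58 (SE 0.47, adjusted p = 0.0222) for the BRF1 guide at 105767298, -3.05 (SE 0.57, adjusted p = 0.0306) for the BRF1 guide at 105767326, -4.01 (SE 0.69, adjusted p = 0.0159) for the TAF1D P1 guide at 93474630 and -6.96 (SE 1.31, adjusted p = 0.0312) for the GTF3C2 guide at 27579592. The last had 0 counts in both LGR DMSO samples, so its fitted value depends on the prior count and is no bound. What lay behind these differences was not tested.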

How the results depend on the processing

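The calls of lower guides and genes in the growth comparisons kept their direction under every alternative that was run, and no phenotype of a called gene changed sign. Of the values followed 1 by 1 under these alternatives, which were gene phenotypes and some single guides, 35 lost the call and 13 gained it. Losses among the member guides as a whole were larger and show in the counts that follow. In the 100-fold screen, leaving out 1 sample gave 32 to 65 called guides (63 with all samples). In the LGR growth under DMSO it gave 39 to 86 (76 with all) and a fit with the DASA samples gave 21. In the legacy library leaving out 1 sample gave 44 to 70 (64 with all) and the joint fit gave 34. Of all guides those joint fits called 1678 lower of 102907 in the LGR library and 2458 lower of 101745 in the legacy library. The dasatinib comparison depended on the processing most. In the LGR library 0 guides were called, against 3 in the joint fit, 3 with the replicate block, 8 by DESeq2 and 0 to 29 with 1 sample left out. In the legacy library 2 were called, against 1 without TMM and 1 with scaling to non-targeting guides. The joint fit gave 11, the replicate block 12 and DESeq2 11. Over all guides the higher calls there were 574, 395, 565, 1899, 2041 and 2044 in that order, and the lower calls 35, 36, 35, 461, 397 and 369. Leaving out 1 DASA sample, which left a lone sample in that group, raised the calls most, over members and all guides alike. The member counts of those fits therefore follow a rise across the whole library and cannot be read as a trait of the members. The fits with 1 DASA sample also called 288 to 386 non-targeting guides. Member genes called under dasatinib were 3 with a filter of 10 counts in the LGR library (1 in the chosen setting) and 0 to 1 and 0 to 2 with 1 sample left out in the LGR and legacy libraries. The replicate block gave 64 guides at 100-fold. Replicate numbers did not pair the samples: the correlation of deviations was 0.00170, -0.00133 and 0.00185. Without subtracting the non-targeting median, the member median of the 1000-fold T0 against plasmid was -0.028 instead of -0.016. Depth limited guides that were nearly gone: in DMSO 66 to 71 members had under 50 counts, and for these only large differences could be seen.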
